A study of Mus musculus with 12 samples.

Results

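Normalised read counts of mouse leukaemia cells kept for 24 h with ruxolitinib and GSK-LSD1 together were compared with those of cells kept with the solvent DMSO. The comparison rests on 6 of the 12 libraries of the series, 3 for each treatment, and on 11484 of the 24411 gene symbols in the table, those with a mean of at least 10 over the 12 libraries. The cells were BALB/c bone marrow cells carrying retroviral mutant CSF3R, the receptor for granulocyte colony-stimulating factor, and mutant CEBPA, a transcription factor of granulocyte development. All libraries shared both mutant genes, the strain, culture in IMDM with fetal bovine serum and the time of 24 h. The DMSO group received no drug, the ruxolitinib group 50 nM of that inhibitor of JAK1 and JAK2, the GSK-LSD1 group 2 nM of that inhibitor of the histone demethylase LSD1, and the combination group both at these doses. The labels do not say whether the libraries of a group came from separate cultures, so p-values measure the spread between libraries, which may be technical. How many cell clones the leukaemia held is not given in the sources used here.

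CSF3R signals through JAK kinases, which phosphorylate STAT transcription factors and also switch on the RAS and MAP kinase pathway. LSD1, encoded by Kdm1a, removes methyl groups from histones and is brought to genes by the repressors GFI1 and GFI1B together with CoREST proteins and histone deacetylases. During the maturation of neutrophils, primary granule proteins are made first, then those of secondary and tertiary granules, while growth and division slow down.

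Leukocyte and neutrophil genes were visible in the values, though not all at high levels. Ptprc, the pan-leukocyte antigen CD45, lay between 1273.4 and 1364.3 in the DMSO libraries and Prtn3, a neutrophil protease, between 2002.5 and 2203.6. In the same libraries Mpo, myeloperoxidase, ranged from 6384.6 to 6720.1, but Elane, neutrophil elastase, from 134 to 144 and Kit from 15.8 to 21. Cebpa lay between 9086.3 and 9713.3, a value that could hold reads of the introduced gene, as could that of Csf3r. The multiples of each library's smallest step summed to between 8260995 and 8528400, so depth was nearly equal. Combination replicate 3 stood apart from its group, with a median absolute log2 deviation of 0.160 from the other combination libraries, against at most 0.112 for the other 2. Ruxolitinib replicate 2 lay on the same side of the second principal component (-19.7, against -17.3 for combination replicate 3).

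The combination changed 4859 of the 11484 genes against DMSO (42.3%; limma, Benjamini-Hochberg adjusted p under 0.05), of which 2356 rose (20.5%) and 2503 fell (21.8%). Rises were larger than falls. Among genes that rose, 451 did so at least 2-fold, 61 at least 4-fold and 10 at least 8-fold, whereas 33 fell at least 2-fold and none reached 4-fold. The median log2 fold change was 0.54 over the genes that rose and -0.33 over those that fell, on the log2(value + 1) scale used throughout, which understates the change of low genes. In normalised counts the falls outweighed the rises, with a loss of 7.09% of the DMSO total over the genes that fell and a gain of 5.64% over those that rose. Without ruxolitinib replicate 2 and combination replicate 3 together, 5253 genes passed, 4433 of them among the 4859.

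The shares of genes that passed the test differed with abundance, more for falls than for rises. Among the 1687 genes with a mean between 30 and 100, 28.2% rose and 6.4% fell. Among the 1760 genes between 1000 and 3000, 16.4% rose and 38% fell, and among the 451 of 3000 and more, 20.4% and 34.8%. At a change of at least 2-fold, rises outnumbered falls at every level, but most of both lay in genes with a mean under 100. Genes between 10 and 30 gave 158 such rises and 15 such falls, and those between 30 and 100 gave 153 and 9. Small changes pass the test more easily at high counts, and how far this shaped the shares was not tested. Of the 79 long intergenic RNA genes tested, 19 rose and 7 fell, and of the 127 antisense genes 20 rose and 8 fell. Over all genes 20.5% rose and 21.8% fell, so the share of antisense genes that rose was below that of all genes. For long intergenic RNA genes it was slightly above, and both classes fell in smaller shares. Without strand information, which the sources used here do not give, reads of an antisense gene and its partner cannot be told apart. The change followed the GC content of transcripts weakly (Spearman's rho 0.204 across 11053 genes of the same libraries, which are not independent). The spans of Adgre5, Anxa1, Bcl6, Ccne2, Cd34, Cd74, Cebpb, Cebpd, Csf1r, Dkc1, Hk3, Hvcn1, Il2rg, Irf7, Irf8, Itgam, Kdm1a, Lmo2, Lss, Ncf1, Ndufs1, Pfkp, Timm9 and Trf overlap another annotated gene, and their counts may hold its reads.

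**Figure D1:**
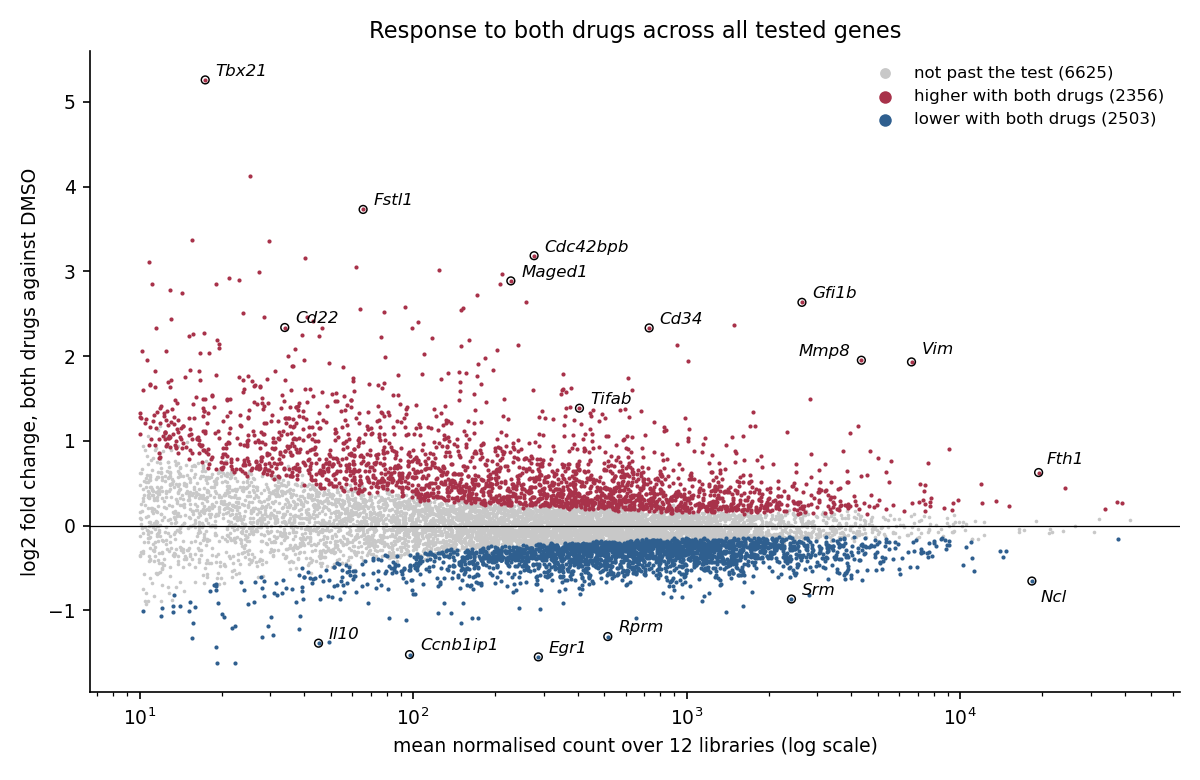
Each point is 1 of the 11484 tested genes, with its mean normalised count over the 12 libraries on a log axis and its log2 fold change after both drugs against DMSO. The 2356 genes that rose are red, the 2503 that fell are blue, and the rises reach further from 0 than the falls.

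Of the genes that averaged 100 or more after the combination, those with the largest rises included genes of secreted factors, cytoskeletal proteins and inhibitors of transcription. Fstl1, a secreted follistatin-like glycoprotein (chromosome 16, 37776873 to 37836514, plus strand, GRCm38), measured 10.92, 15 and 5.941 after DMSO and 156.7, 137.1 and 141.2 after the combination (log2 fold change 3.73 ± 0.24 SE, adjusted p = 1.24e-10). Its 3 combination libraries lay far above the DMSO libraries, which were close to the lower limit of what was tested. Cdc42bpb, a kinase that acts on myosin downstream of CDC42 (chromosome 12, 111292976 to 111377718, minus strand), gave 60.58, 44.01 and 62.39 after DMSO and 517.7, 492.3 and 515.1 after the combination (3.18 ± 0.12 SE, adjusted p = 1.79e-14). Maged1, an adaptor protein of the MAGE family (chromosome X, 94535474 to 94542143, minus strand), gave 48.66, 50.01 and 65.36 after DMSO and 399.7, 386.7 and 437.6 after the combination (2.89 ± 0.13 SE, adjusted p = 5.91e-13). Neither gene overlapped between the groups, and both were about as high after GSK-LSD1 alone. The inhibitor of helix-loop-helix factors Id3 rose by 3.05, Kctd14 by 2.97, the surface protein Cd7 by 2.85 and the Wnt antagonist Dkk1 by 2.72. Scpep1, a serine carboxypeptidase, rose by 3.02, but it overlaps Scpep1os on the other strand. Tubb3, a beta-tubulin best known from neurons that overlaps Gm20388, rose by 2.64, and Spsb1, a SOCS box protein, by 2.58.

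In normalised counts, gains were largest for abundant genes. Vim, the intermediate filament protein vimentin (chromosome 2, 13573927 to 13582826, plus strand), measured 2689, 2767 and 2932 after DMSO and 10550, 10623 and 10824 after the combination (1.93 ± 0.05 SE, adjusted p = 7.26e-17). The 3 combination libraries lay within a narrow band well above DMSO. Fth1, the ferritin heavy chain that stores iron, measured 15135, 15297 and 16156 after DMSO and 22361, 25573 and 24088 after the combination (0.63 ± 0.07 SE, adjusted p = 8.09e-07). Csf2rb2, a subunit of the mouse interleukin-3 receptor that overlaps a microRNA gene, measured 19843, 20783 and 20188 after DMSO and 27971, 28199 and 26284 after the combination (0.44 ± 0.06 SE, adjusted p = 9.95e-06). Gzmb, granzyme B, and Ifitm1, an interferon-induced membrane protein, rose by 0.27 and 0.28. These 2 rises did not pass after quantile normalisation (adjusted p = 0.0827 for Gzmb and 0.176 for Ifitm1).

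Of the genes that averaged 100 or more after DMSO, those with the largest falls included an immediate early factor, a peptide hormone receptor and tubulins. Egr1, an immediate early transcription factor, measured 453.8, 462.1 and 489.2 after DMSO and 148.8, 154.9 and 176 after the combination (-1.55 ± 0.10 SE, adjusted p = 2.24e-10). Rprm, a gene linked to cell cycle arrest (chromosome 2, 54084093 to 54085552, minus strand), measured 709.1, 763.2 and 741.7 after DMSO and 274.7, 301.9 and 317.2 after the combination (-1.31 ± 0.09 SE, adjusted p = 2.5e-10). All 3 combination libraries of both genes lay below every DMSO library. Calcrl, the receptor of adrenomedullin and CGRP, fell by 1.02 on the log2 scale and the tubulins Tuba8 and Tubb6 by 1.09 and 1.09. Car2, carbonic anhydrase II, fell by 1.15, the transporter Slco2b1 by 1.11, the protease Adamts3 by 1.09 and the signalling regulator Ubash3a by 1.03. Ccnb1ip1 fell by 1.52, but it overlaps Rpph1, the RNA component of RNase P, on the other strand.

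**Figure D2:**
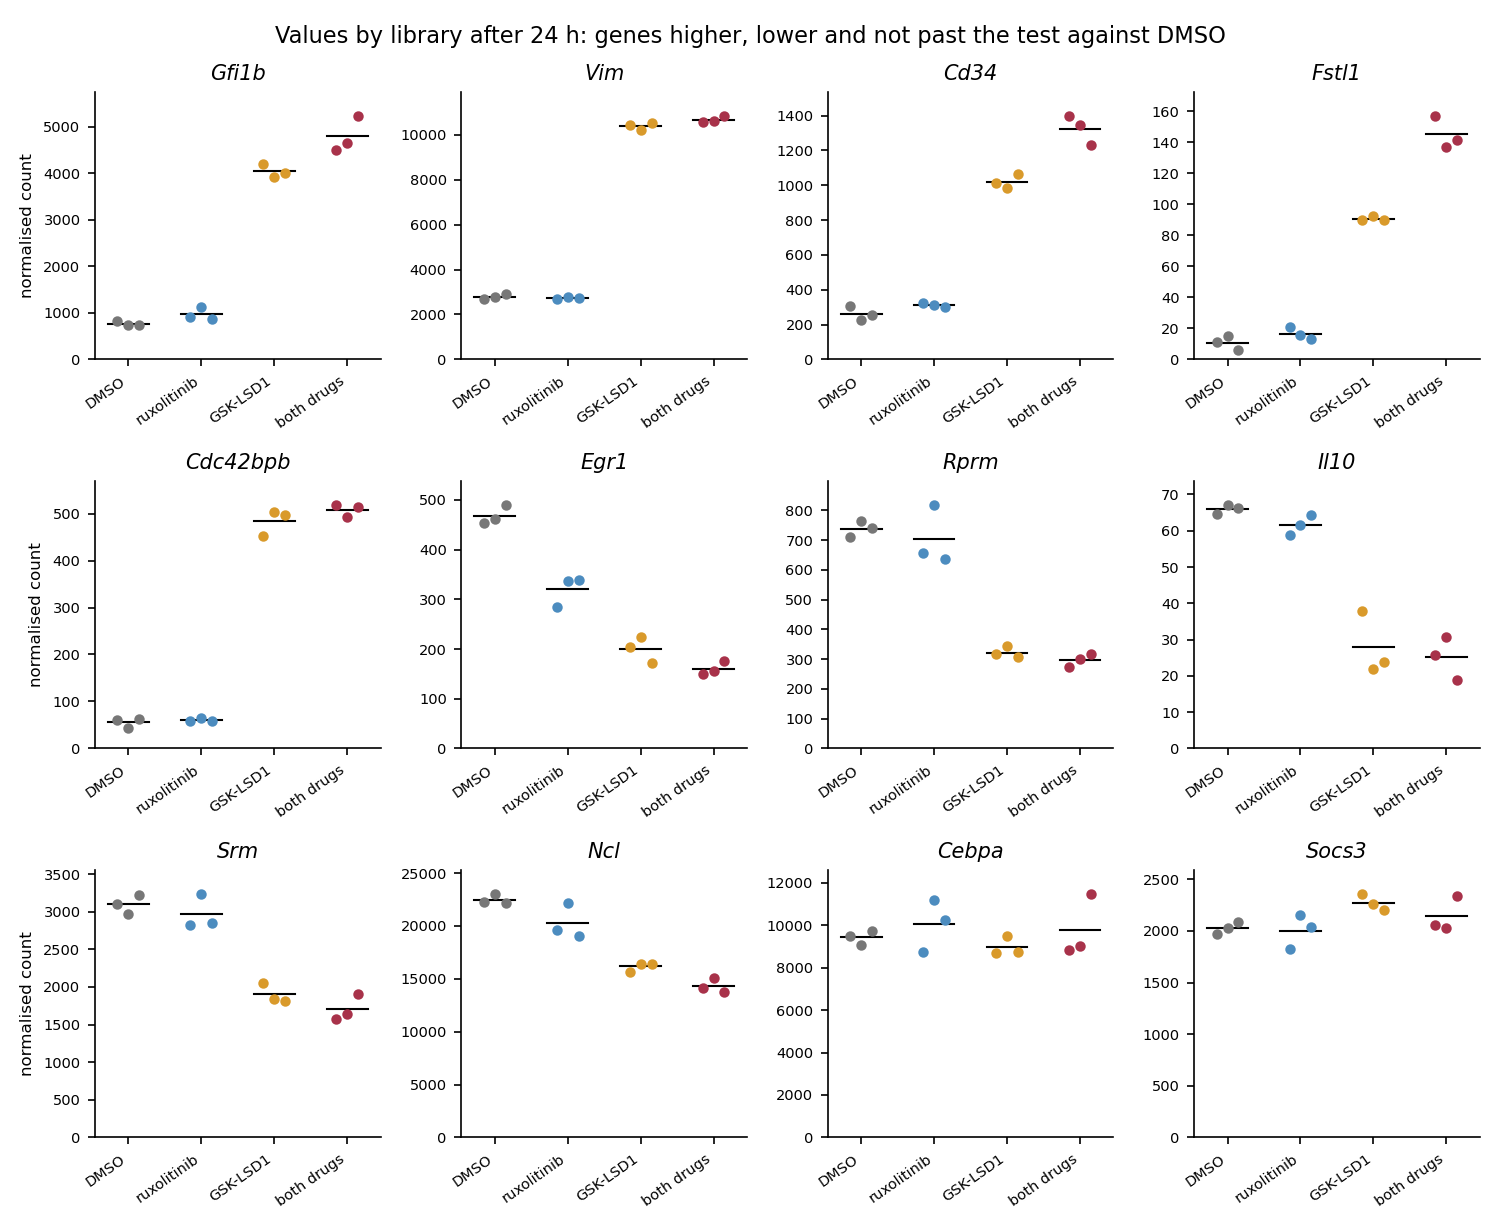
Normalised count (vertical axis, from 0) of 12 genes in each of the 3 libraries of the 4 treatments; points are libraries and bars are means. Gfi1b, Vim, Cd34, Fstl1 and Cdc42bpb are higher after both drugs than after DMSO, Egr1, Rprm, Il10, Srm and Ncl are lower, and Cebpa and Socs3 overlap.

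Genes of secondary and tertiary neutrophil granules rose. Of 18 list members 12 were tested, and 11 rose and none fell, where 20.5% of all genes tested rose, with a median log2 fold change of 1.09 against -0.01 over all genes. The shares over all genes, 20.5% higher and 21.8% lower, are the background for the counts of the lists that follow. Some genes, such as Cybb and Csf1r, belong to several lists, so the counts of those lists are not independent. Mmp8, neutrophil collagenase, measured 2252, 2018 and 1953 after DMSO and 8499, 7585 and 7974 after the combination (1.95 ± 0.07 SE, adjusted p = 1.88e-14). Lyz2, lysozyme (chromosome 10, 117277331 to 117282321, minus strand), measured 542.2, 426.1 and 396.1 after DMSO and 1117, 1127 and 1212 after the combination (1.35 ± 0.10 SE, adjusted p = 4.73e-10). The lowest combination library lay well above the highest DMSO library for both genes. Hp, haptoglobin, rose by 1.39, the chitinase-like Chil3 by 1.05, Cd177, a neutrophil surface glycoprotein, by 1.37 and Cybb, the catalytic subunit of the NADPH oxidase, by 0.84. The summed counts of the list took 0.0505% to 0.0587% of the DMSO libraries and 0.145% to 0.161% of the combination libraries. These sums were 4268.9 to 4940.5 after DMSO and 12032.2 to 13183.5 after the combination, and Mmp8 made up most of the gain. In bulk libraries, more cells with a granule programme and more RNA per cell cannot be told apart.

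Promoter windows of these genes were searched for the binding motif of C/EBP factors, the family of CEBPA and CEBPE. Windows ran from 250 bases before to 50 after a RefSeq gene start (GRCm38.p6) and were found for 9256 of 11482 tested genes (80.6%). A motif was counted on both strands, and pairs of list and motif were looked at after the values were seen. The letters TTGCNNAA were present in 5 of the 10 windows of the 12 tested granule genes (10 of 12 matched), against 8.37% of the 11727 windows of tested genes and 10.8% of 32851 RefSeq windows. The same 10 windows also held GFI1 letters (AAATCA) in 3 cases, against 8.12%, and PU.1 letters (GAGGAAGT) in 2, against 3.26%, so the larger share was not particular to C/EBP. The 250 bases before the start of Mmp8 are shown because this gene had the largest gain in counts of the list and its window, like the others printed here, was picked for holding a match after several had been looked at. The C/EBP motif, in capitals, stands 19 bases before the start. The same bases also hold the GFI1 letters and, on the other strand, the PU.1 letters, which are not capitalised.
Mmp8 (chr9:7558179-7558428, plus strand): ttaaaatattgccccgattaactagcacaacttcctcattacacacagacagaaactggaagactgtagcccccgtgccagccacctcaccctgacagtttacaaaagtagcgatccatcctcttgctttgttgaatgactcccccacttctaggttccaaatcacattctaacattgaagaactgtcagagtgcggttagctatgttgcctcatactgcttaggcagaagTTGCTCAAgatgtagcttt
A match describes the letters and does not show binding. The windows of all genes that rose were not compared, because 79% of these genes had a window, just under the minimum share set for such a comparison.

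Of 11 tested primary granule genes 4 rose and 1 fell (median 0.06), where 20.5% of all genes rose and 21.8% fell. Mpo, myeloperoxidase (chromosome 11, 87793581 to 87804413, plus strand), measured 6720, 6385 and 6591 after DMSO and 11974, 12041 and 12905 after the combination (0.91 ± 0.08 SE, adjusted p = 2.52e-08). It lay between these levels after ruxolitinib alone (10693, 11874 and 8395). Prss57, a neutrophil serine protease that overlaps Fstl3, rose by 0.42 and the protease inhibitor Serpinb1a by 0.43. Ms4a3, a membrane protein of granulocyte and monocyte progenitors, fell from 342.6, 319.1 and 354.5 to 230.1, 192.4 and 209.8 (-0.68 ± 0.13 SE, adjusted p = 0.000196).

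Genes listed for the surface and signalling of mature neutrophils, not all of which are particular to them, rose in most cases. Of 24 tested members 20 rose and 1, the lipoxygenase gene Alox5, fell (median 0.80). Csf3r, Fcgr4 and Trem1 passed in neither direction, Fpr1 was too low to be tested and Ly6g was not among the measured symbols. Itgam, the integrin CD11b, measured 349.6, 311.1 and 292.1 after DMSO and 647.7, 631.4 and 746.9 after the combination (1.09 ± 0.08 SE, adjusted p = 9.98e-10), and its combination libraries lay above every DMSO library. The Fc receptors Fcgr3 and Fcgr2b rose by 1.04 and 1.03, and Cxcr4, which retains granulocytes in marrow, by 0.88. Ly6c2 rose by 2.51 from low values (9.931, 5.001 and 9.902 after DMSO and 45.62, 43.41 and 62.65 after the combination). Of 16 S100 and annexin genes 10 rose and none fell (median 0.46). S100a9, a calcium-binding protein abundant in neutrophils, measured 3219, 3071 and 2530 after DMSO and 6871, 6113 and 6911 after the combination (1.18 ± 0.10 SE, adjusted p = 9.11e-09), its partner S100a8 rose by 1.04, and the annexins Anxa1 and Anxa6 by 1.17 and 1.15. Of 8 NADPH oxidase genes 6 rose, among them Ncf1 at 0.74, Ncf4 at 0.45 and the proton channel Hvcn1 at 0.61.

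Monocyte, macrophage and lysosome genes rose as well. Of 31 monocyte and macrophage genes 19 were tested, of which 13 rose and 1, Vcan, fell (median 0.85; none fell without DMSO replicate 1 or 2, ruxolitinib replicate 1, GSK-LSD1 replicate 3 or combination replicate 3). Ctss, cathepsin S, measured 78.45, 68.02 and 73.28 after DMSO and 266.8, 294 and 273.5 after the combination (1.91 ± 0.13 SE, adjusted p = 2.57e-10). Psap, the precursor of the saposins, measured 2754, 2677 and 2694 after DMSO and 5597, 5590 and 6163 after the combination (1.09 ± 0.05 SE, adjusted p = 1.89e-12), and neither gene overlapped with DMSO. The lectin Lgals3 rose by 1.04 and the adhesion receptor Adgre5 by 1.06. The transcription factor Irf8 rose by 1.47 and Csf1r, the receptor of macrophage colony-stimulating factor, by 1.02, both from low values. Of 29 lysosome genes 22 rose and none fell, by smaller amounts (median 0.27), with the mannosidase Man2b1 at 0.66 and the acid lipase Lipa at 0.65. Of 22 autophagy genes 11 rose and 1, Atg5, fell (none without DMSO replicate 3). Among the rises were Tecpr1 at 2.07, Wipi1 at 0.79 and the kinase Ulk1 at 0.61.

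Among parts of the LSD1 corepressor complex, the recruiting repressors rose and the enzyme itself did not pass the test. Of 14 tested genes 7 rose and 1, the deacetylase gene Hdac2, fell (median 0.19). Gfi1b (chromosome 2, 28609450 to 28621982, minus strand) measured 833.2, 743.2 and 733.8 after DMSO and 4494, 4651 and 5223 after the combination (2.63 ± 0.08 SE, adjusted p = 1.04e-15). Gfi1 measured 91.36, 99.02 and 93.08 after DMSO and 432.4, 381.8 and 440.6 after the combination (2.13 ± 0.12 SE, adjusted p = 1.04e-11). The combination libraries of both genes lay several-fold above DMSO without overlap. Kdm1a, the drug target itself, measured 1336, 1302 and 1364 after DMSO and 1201, 1247 and 1219 after the combination (-0.13, adjusted p = 0.0741, or 0.0451 with library weights), and each combination library lay below each DMSO library. Phf21a, a reader protein of the complex, rose by 0.61. GFI1 and GFI1B are known to repress their own genes through the core letters AAATCA, present in 8.12% of the windows of tested genes. The window of Gfi1b holds them, in capitals, 34 bases before the start, and is shown for that reason.
Gfi1b (chr2:28621983-28622232, minus strand): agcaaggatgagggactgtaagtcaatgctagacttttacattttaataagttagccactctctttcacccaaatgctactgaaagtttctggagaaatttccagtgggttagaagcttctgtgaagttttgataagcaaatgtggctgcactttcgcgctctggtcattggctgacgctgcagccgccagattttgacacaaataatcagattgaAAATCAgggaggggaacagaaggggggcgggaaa
Of 13 tested genes listed as targets of LSD1 and GFI1, 9 rose and 1 fell (median 1.09). Of the rises, Gfi1, Gfi1b, Lyz2, Itgam, Csf1r and Irf8 were already counted in lists above, so this count is not independent of theirs. The rises also included Csf1, macrophage colony-stimulating factor, at 1.6 and Cd86, a costimulatory protein, at 1.65, while Egr1 was the member that fell. Without combination replicate 3, 2 members of the corepressor list and 2 of the target list fell.

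Of 66 tested myeloid transcription factors 34 rose and 8 fell (median 0.19). Cebpe, which drives late granulocyte maturation (chromosome 14, 54710360 to 54712174, minus strand), measured 136.1, 139 and 163.4 after DMSO and 300.5, 300.9 and 346.1 after the combination (1.11 ± 0.11 SE, adjusted p = 1.49e-07). Spi1, encoding PU.1, measured 1199, 1068 and 1092 after DMSO and 1387, 1497 and 1789 after the combination (0.47 ± 0.10 SE, adjusted p = 0.000769), and Cebpd rose by 0.51. Cebpa and Cebpb gave 0.04 and 0.01, with libraries that overlapped DMSO (adjusted p = 0.727 and 0.923). Sox4, a factor of progenitors, rose from 981.2, 1012 and 1113 to 2046, 2166 and 2263 (1.06 ± 0.07 SE, adjusted p = 1.03e-10). Lmo2 fell by 0.50 and Myc by 0.32 (5661, 5421 and 5499 after DMSO and 4170, 4265 and 4918 after the combination).

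Of 18 tested markers of stem and progenitor cells 6 rose and 4 fell, where 20.5% of all genes rose and 21.8% fell. Cd34 (chromosome 1, 194938819 to 194961279, plus strand) measured 307.9, 228.1 and 254.5 after DMSO and 1396, 1344 and 1230 after the combination (2.33 ± 0.09 SE, adjusted p = 1.79e-14), a more than 4-fold rise. Kit, the receptor of stem cell factor, rose by 1.39 but stayed low (20.85, 21.01 and 15.84 after DMSO and 57.53, 55.24 and 43.76 after the combination). Mycn fell from 1392, 1501 and 1567 to 822.2, 760.6 and 934.8 (-0.83 ± 0.07 SE, adjusted p = 1.92e-08). Meis1 and Hoxa9, genes of self-renewal in many leukaemias, had means under 10 over the 12 libraries and were not tested.

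Of 25 genes of the JAK-STAT pathway 8 rose and 4 fell (5 rose without DMSO replicate 1). Over all genes 20.5% rose and 21.8% fell, and without that library 1981 of the 11484 rose. The share of the pathway that fell was not above that of all genes. The share that rose was above it, but only slightly without that library. Ptpn6, the phosphatase SHP-1 that dampens cytokine signalling, measured 1151, 1146 and 1183 after DMSO and 1916, 1920 and 2039 after the combination (0.75 ± 0.06 SE, adjusted p = 1.05e-09), Pias3, an inhibitor of STAT3 that overlaps Nudt17, rose by 0.71 and Stat5b by 0.43. Socs5 fell by 0.36, and Jak2 gave 0.03 with an adjusted p of 0.805. Of 22 known targets of STAT3 and STAT5, 1 rose and 5 fell (median -0.04; 2 rose without ruxolitinib replicate 1 or 2 or combination replicate 1), a share of falls near that of all genes. The share that rose was below the 20.5% of all genes. Bcl6, a repressor, rose by 1.27 and the kinase gene Pim3 fell by 0.61. Against GSK-LSD1 alone 3 of the 22 were lower and 0 higher, where 0.348% and 1.05% of all genes were. Against ruxolitinib alone 5 were lower and 4 higher. The summed list took 0.343% to 0.355% of combination libraries, below the DMSO (0.362% to 0.366%) and GSK-LSD1 libraries (0.379% to 0.397%). The ruxolitinib libraries (0.337% to 0.357%) overlapped the combination. Among feedback genes of the pathway, Cish measured 138, 147 and 141.6 after DMSO and 136.9, 150.9 and 171.1 after the combination. Socs3 measured 1968, 2031 and 2082 after DMSO and 2053, 2030 and 2338 after the combination, and the kinase gene Pim1 4457, 4387 and 4436 after DMSO and 4336, 4517 and 4623 after the combination. These 3 genes overlapped between the groups (log2 0.10, 0.08 and 0.02, none past the test). Socs2 fell by 0.19, which no longer passed when DMSO replicate 1 was left out (adjusted p = 0.0759), and 3 targets fell without that library.

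Immediate early genes and feedback genes of the MAP kinase pathway split. Of 24 tested members 7 rose and 8 fell (median 0.01). Beside Egr1, the ETS factor Etv4 fell from 165.8, 189 and 159.4 to 64.47, 85.82 and 103.4 (-1.03 ± 0.14 SE, adjusted p = 4.29e-06). Dusp5, a phosphatase of ERK kinases, rose by 0.86 and the antiproliferative gene Btg2 by 0.70.

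Receptors for cytokines and growth factors rose as a group: of 34 tested members 25 rose and none fell (median 0.52), and 1 fell without combination replicate 1 or 3 or any of the ruxolitinib libraries. The rises include Csf1r, Ccr2, Cxcr2, Cxcr4 and Il1r2, already counted in lists above. Il6st, the shared gp130 subunit, measured 533.3, 526.1 and 510 after DMSO and 1328, 1207 and 1017 after the combination (1.17 ± 0.09 SE, adjusted p = 2.08e-09). Ifngr2, of the interferon gamma receptor, measured 277.1, 268.1 and 234.7 after DMSO and 694.3, 666.9 and 653.4 after the combination (1.37 ± 0.09 SE, adjusted p = 2.57e-10), and both were without overlap. Il2rg, the common gamma chain, rose by 0.85, whereas Csf3r gave 0.19 with libraries that overlapped (adjusted p = 0.108, or 0.00836 without combination replicate 1). Of 17 cytokine genes 6 rose and 2, Il10 and Vegfa, fell (1 without DMSO replicate 2 or combination replicate 2 or 3). Il10, an anti-inflammatory cytokine, measured 64.55, 67.02 and 66.35 after DMSO and 25.79, 30.58 and 18.9 after the combination (-1.39 ± 0.21 SE, adjusted p = 1.87e-05), while Il15 rose by 1.71, Il16, which overlaps Stard5, by 0.98 and Csf1 as given above.

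Genes of innate sensing were among the rises. Of 25 tested genes of NF-kB and inflammatory signalling 15 rose and 1, Nfkbib, fell (median 0.32; none fell without DMSO replicate 3 or combination replicate 1, and 2 without ruxolitinib replicate 2 or 3 or combination replicate 3). Nlrp3, an inflammasome sensor, measured 14.9, 16 and 13.86 after DMSO and 76.37, 65.11 and 82.54 after the combination (2.24 ± 0.21 SE, adjusted p = 2.75e-08). The toll-like receptors Tlr1 and Tlr6 rose by 1.63 and 0.99 from low values, and Casp1, the inflammasome protease, by 0.71. Of 27 interferon-stimulated genes 8 rose and 2 fell, with Irf7 at 1.22, Gbp2 at 0.99 and the RNA sensor gene Ddx58 at 0.42. The genes that fell, Ifih1 and Igtp, became 0 without DMSO replicate 2 or 3, and 1 without DMSO replicate 1, ruxolitinib replicate 1 or 3, GSK-LSD1 replicate 3 or combination replicate 1 or 3. Of 14 antigen presentation genes 6 rose, among them the invariant chain Cd74 at 1.27.

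Adhesion and movement genes rose in part. Of 23 integrin and adhesion genes 13 rose and 1 fell: Itgb7 and Itgb3 rose by 0.88 and 0.86, while Itgav fell by 0.78. Without combination replicate 3, 2 of them fell. Of 33 actin and migration genes 16 rose and none fell (1 without combination replicate 3), among them the myosin Myo1f at 1.25 and filamin A (Flna) at 0.64. Of 38 enzymes that modify histones 13 rose and 5 fell (3 fell without DMSO replicate 1 or combination replicate 1, and 8 without ruxolitinib replicate 2 and combination replicate 3). The histone demethylase Kdm7a and the deacetylases Hdac9 and Hdac5 rose by 1.02, 0.88 and 0.74.

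**Figure D3:**
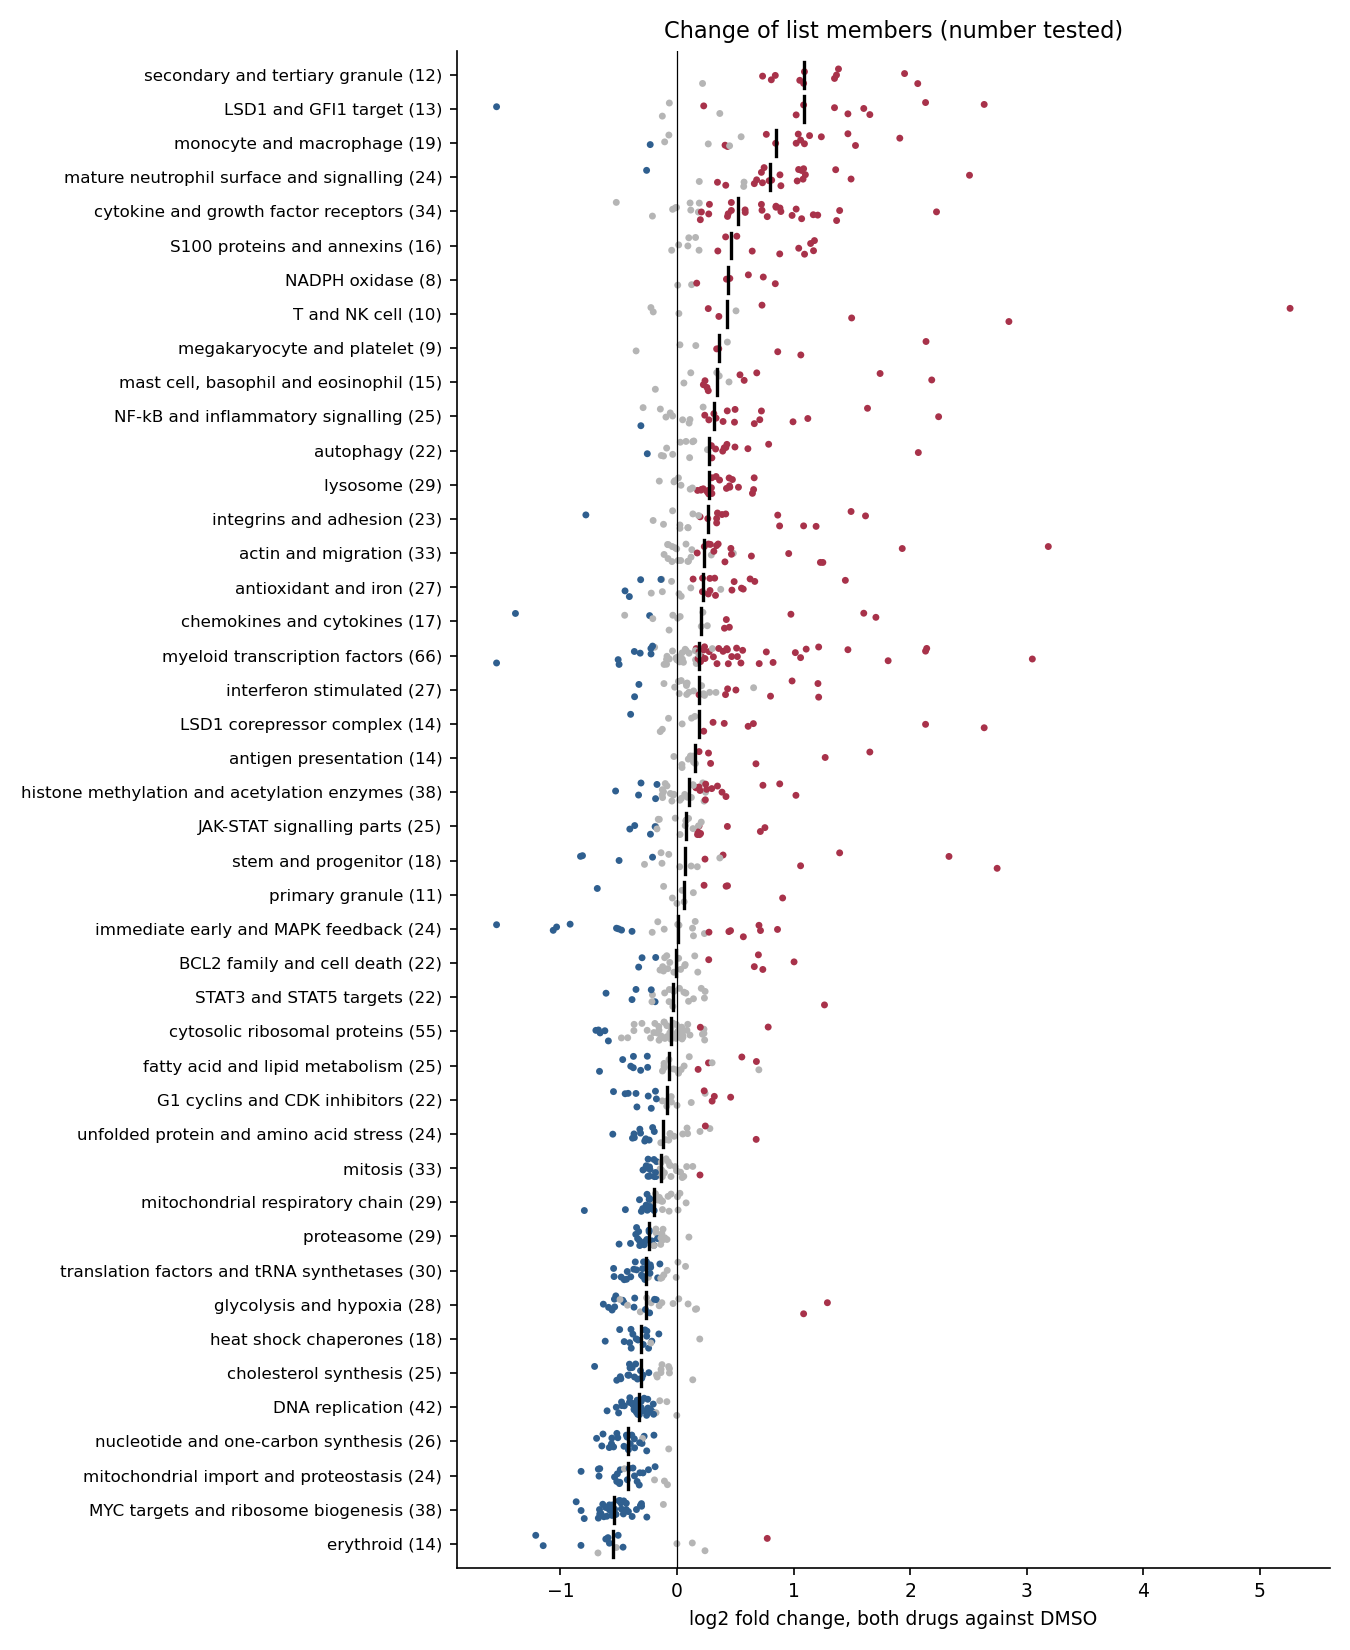
Log2 fold change after both drugs against DMSO (horizontal axis) of every tested member of 44 gene lists, with the number tested in brackets; red points rose, blue points fell, grey points did not pass the test, and black bars are medians. Medians run from 1.09 for granule genes to -0.54 for MYC targets and ribosome biogenesis and -0.55 for erythroid genes.

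MYC targets and ribosome biogenesis genes, kept in a single list, fell almost throughout. Of 38 tested members 37 fell and none rose, with a median of -0.54. Ncl, nucleolin (chromosome 1, 86344719 to 86359400, minus strand), which holds small nucleolar RNA genes in its span, measured 22259, 22987 and 22171 after DMSO and 14110, 15057 and 13727 after the combination (-0.65 ± 0.06 SE, adjusted p = 4.64e-08). Srm, spermidine synthase, measured 3101, 2972 and 3228 after DMSO and 1574, 1642 and 1902 after the combination (-0.87 ± 0.07 SE, adjusted p = 7.13e-09). The highest combination library lay below the lowest DMSO library for both genes. Odc1, the first enzyme of polyamine synthesis, fell by 0.80 and the dyskerin gene Dkc1 by 0.60. The list took 1.51% to 1.53% of the DMSO libraries and 1.05% to 1.1% of the combination libraries.

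DNA replication genes fell as well. Of 42 replication genes 38 fell and none rose (median -0.33). Rrm2, a subunit of ribonucleotide reductase, measured 3424, 3458 and 3672 after DMSO and 2493, 2614 and 2476 after the combination (-0.48 ± 0.06 SE, adjusted p = 1.89e-06). Orc1, of the origin recognition complex, fell by 0.60, the helicase-like Hells by 0.52 and Cdc6, which loads the replicative helicase, by 0.50. Of 33 mitosis genes 14 fell and 1, Nusap1, rose (9 fell without DMSO replicate 1; none rose without DMSO replicate 1 or 3 or combination replicate 1 or 2, and 2 rose without combination replicate 3), with Mad2l1 at -0.29 and Bub1b at -0.26. Mki67, a marker of cycling cells, overlapped between the groups (5520, 5735 and 5368 after DMSO and 6093, 6040 and 5485 after the combination). Of 22 G1 regulators 4 rose and 9 fell, with the cyclins Ccne1 and Ccne2 at -0.44 and -0.55 and the CDK inhibitor Cdkn1b at 0.46. Cdkn1a gave -0.13 (adjusted p = 0.14, or 0.022 without combination replicate 3).

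Windows of genes that fell were searched for growth-related motifs. The E-box CACGTG, bound by MYC with MAX, was in 13.4% of the 2439 windows of genes that fell, against 10.2% over all tested genes and 9.7% of the 6774 windows of genes that did not pass. The E2F letters TTTGGCGC or TTTCCCGC were in 4.51%, against 3.04% and 2.76%. Among MYC targets and ribosome biogenesis genes 12 of 43 windows held the E-box (27.9%) and 3 the E2F letters (6.98%). Among replication genes 13 of 41 held the E2F letters (31.7%) and 6 the E-box (14.6%). The first list was chosen in part as MYC targets, so its share of E-boxes cannot test that role. For GFI1, C/EBP, PU.1 (GAGGAAGT) and STAT (TTCNNNGAA) letters, the share in genes that fell was 7.18%, 7.95%, 3.12% and 6.85%, against 8.12%, 8.37%, 3.26% and 7.09% over tested genes. The windows of Ldha and Cdc6 are shown because each gene fell and its window holds the motif, in capitals. Ldha has 2 RefSeq starts, and the window printed is the one with matches, 145 and 48 bases before the start. In Cdc6 the E2F letters stand on the other strand, 138 bases before the start.
Ldha (chr7:46845554-46845803, plus strand): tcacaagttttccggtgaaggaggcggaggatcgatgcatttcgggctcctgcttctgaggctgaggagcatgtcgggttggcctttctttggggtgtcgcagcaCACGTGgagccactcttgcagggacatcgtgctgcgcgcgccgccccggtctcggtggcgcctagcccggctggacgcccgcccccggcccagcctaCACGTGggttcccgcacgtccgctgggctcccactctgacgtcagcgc
Cdc6 (chr11:98907901-98908150, plus strand): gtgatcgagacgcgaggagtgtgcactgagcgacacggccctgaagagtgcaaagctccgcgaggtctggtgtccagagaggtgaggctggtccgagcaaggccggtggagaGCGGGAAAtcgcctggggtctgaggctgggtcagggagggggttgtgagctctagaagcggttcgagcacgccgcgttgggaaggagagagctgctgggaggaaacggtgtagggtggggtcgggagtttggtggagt
Ldha, lactate dehydrogenase A, measured 13460, 13087 and 14036 after DMSO and 9254, 9119 and 9628 after the combination (-0.54 ± 0.06 SE, adjusted p = 3.18e-07), and Cdc6 measured 867, 851.2 and 903.1 after DMSO and 649.7, 608.7 and 593.7 after the combination (-0.50 ± 0.07 SE, adjusted p = 4.23e-06). All combination libraries of both genes lay below DMSO.

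Biosynthetic genes fell across several pathways. Of 26 nucleotide and one-carbon synthesis genes 24 fell and none rose (median -0.42). Shmt1, a serine hydroxymethyltransferase that overlaps Smcr8, measured 1177, 1140 and 1182 after DMSO and 724, 754.7 and 757.8 after the combination (-0.65 ± 0.06 SE, adjusted p = 1.39e-08), and Ppat, the first enzyme of purine synthesis, which overlaps Paics, fell by 0.69. Ctps, CTP synthase, fell by 0.63 and Mthfd1 by 0.58. Of 25 cholesterol synthesis genes 16 fell and none rose (median -0.31), with lanosterol synthase (Lss) at -0.71 and Fdps at -0.41. In lipid metabolism 8 of 25 genes fell and 4 rose (2 rose without DMSO replicate 3 or combination replicate 1). The desaturase gene Scd1 gave -0.66 and the lipid droplet gene Plin2 0.56. In glycolysis and hypoxia 14 of 28 fell and 2 rose. The phosphofructokinase gene Pfkp fell by 0.59, whereas Hk3, the hexokinase of myeloid cells, rose from 278.1, 256.1 and 272.3 to 670.5, 606.7 and 702.1 (1.29 ± 0.08 SE, adjusted p = 1.08e-10).

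Mitochondrial and protein quality genes fell too. Of 24 import and proteostasis genes 20 fell and none rose (median -0.42). The chaperonin gene Hspd1, which overlaps Hspe1, measured 3564, 3691 and 3750 after DMSO and 2084, 2316 and 1845 after the combination (-0.82 ± 0.07 SE, adjusted p = 3.33e-09), and Timm9 fell by 0.66. Of 29 respiratory chain genes 14 fell and none rose, with Ndufs1 at -0.44. Of 18 heat shock chaperone genes 16 fell and none rose (1 without combination replicate 3), with Hsph1 at -0.62 and Hsp90aa1 at -0.49. Of 29 proteasome genes 18 fell, with Psmd12 at -0.40, and of 30 translation factors and tRNA synthetases 22 fell, with Eif2b1 at -0.54 and Rars at -0.45. Of 24 genes of the unfolded protein and amino acid response 11 fell and 2 rose (1 without DMSO replicate 1 or combination replicate 2), with the oxidase gene Ero1l, counted with hypoxia, at -0.52, Asns at -0.38 and Trib3 at 0.68. Ribosomal protein genes, whose reads are shared with many pseudogenes and are therefore uncertain, stayed mostly outside the test: of 55, 2 rose and 5 fell. Of these, 2 fell without DMSO replicate 1 or 3 and 10 without ruxolitinib replicate 2 and combination replicate 3 together, and the rises, Rpl11 and Rps9, numbered 0 or 1 without each library except ruxolitinib replicate 2 and combination replicate 1.

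**Figure D4:**
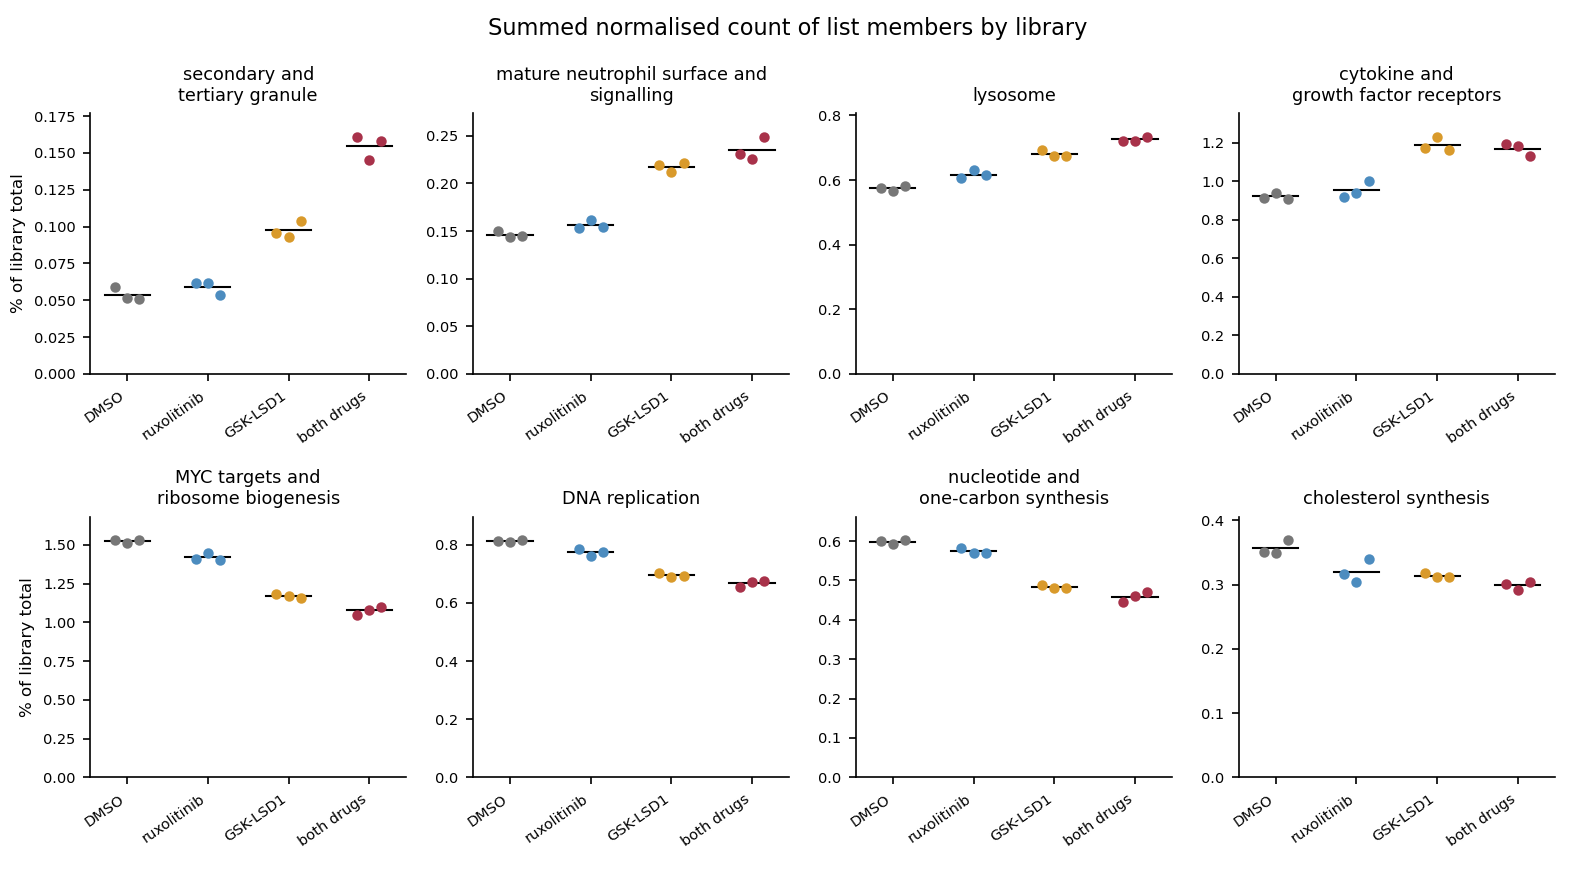
Summed normalised count of 8 lists as a percentage of each library's total (vertical axes from 0); points are the 3 libraries of each treatment and bars are means. For the 4 upper lists each combination library lies above every DMSO library, and for the 4 lower lists each lies below. Most of the gain in the granule list is that of Mmp8.

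Cell death genes passed the test in shares near or below those of all genes (20.5% higher and 21.8% lower). Of 22 tested genes of the BCL2 family and cell death 5 rose and 3, Bcl2, Pmaip1 and Casp8, fell (1 fell without DMSO replicate 2 or 3 or combination replicate 3). Bmf, a BH3-only protein that promotes apoptosis, measured 296.9, 303.1 and 290.1 after DMSO and 621.9, 643.2 and 529.1 after the combination (1.00 ± 0.08 SE, adjusted p = 2.56e-09). Bcl2l11, encoding BIM, measured 224.4, 200.1 and 228.7 after DMSO and 368, 343.3 and 377.9 after the combination (0.74 ± 0.09 SE, adjusted p = 7.54e-07), and both were above DMSO in every combination library. The BH3-only gene Bbc3 (PUMA) and the pore-forming Gsdmd rose by 0.70 and 0.66. Among 27 antioxidant and iron genes 15 rose and 4 fell, with haem oxygenase (Hmox1) at 0.67, Gclc at 0.55, transferrin (Trf) at 0.47 and Fth1 as above.

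Markers of other blood and marrow cells were examined in the same libraries. Of 14 tested erythroid genes 8 fell and 1, Blvrb, rose (median -0.55), and 4 fell without DMSO replicate 1 or combination replicate 1 or 2. The globin genes Hba-a1, Hba-a2, Hbb-bt and Hbb-bs were at 0 in all DMSO and combination libraries. The summed erythroid counts took 0.0749% to 0.0813% of DMSO and 0.0549% to 0.0625% of combination libraries, with Tfrc, the transferrin receptor, the most abundant member. Tfrc was already counted among the falls of the MYC targets and ribosome biogenesis list. Of 9 tested megakaryocyte and platelet genes 5 rose, led by Thbs1, thrombospondin-1, with 485.6, 385.1 and 354.5 after DMSO and 1895, 1610 and 1856 after the combination (2.14 ± 0.10 SE, adjusted p = 4.39e-13). That list took 0.0586% to 0.0611% of DMSO and 0.0895% to 0.0937% of combination libraries, with Itga2b the most abundant member and Gp6 and Gng11 at 0. Of 15 tested mast cell, basophil and eosinophil genes 9 rose and none fell (1 fell without combination replicate 2). Alox15, a lipoxygenase of eosinophils and macrophages, rose from 306.9, 342.1 and 298.1 to 1124, 952.9 and 1102 (1.74 ± 0.08 SE, adjusted p = 4.39e-13), and Hdc, which makes histamine, by 0.68. That list took 0.326% to 0.363% of DMSO and 0.392% to 0.43% of combination libraries, with Cpa3 the most abundant member. The part of other cell types in the changes above was not tested.

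A few lymphoid genes rose, among them Rag1, while other markers of their lineages were at 0. Cd22, an inhibitory lectin of B cells and some myeloid cells, measured 14.9, 11 and 15.84 after DMSO and 71.41, 71.03 and 78.56 after the combination (2.34 ± 0.21 SE, adjusted p = 1.5e-08). Rag1, a recombinase gene of developing lymphocytes and the most abundant B-cell list member in DMSO, measured 222.4, 182 and 206 after DMSO and 306.5, 295 and 263.5 after the combination (log2 fold change 0.50, adjusted p = 0.00112). The B-cell genes Ms4a1, Pax5, Igll1 and Dntt were at 0 in the same 6 libraries, and the summed list took 0.00263% to 0.00309% of DMSO and 0.00454% to 0.005% of combination libraries. Of 23 T and NK genes 10 were tested and 6 rose, including Cd7, Cd28 at 1.5 and Il2rb at 0.73. Cd4, Zap70, Cd2, Klrd1 and Ncr1 were at 0, and the list took 0.396% to 0.441% of DMSO and 0.502% to 0.563% of combination libraries, led by Gzmb. Tbx21, encoding the transcription factor T-bet (chromosome 11, 97098071 to 97115331, minus strand), was at 0 in all DMSO and ruxolitinib libraries, at 22.98, 36.83 and 34.9 after GSK-LSD1 and at 29.76, 47.35 and 36.8 after the combination. Few dendritic cell (3) and stromal (2) genes were tested, of which 1 rose in each list, Ccr7 at 0.85 and Pdgfrb at 0.92 (2 stromal genes rose without combination replicate 2). Those lists took 0.00812% to 0.0105% and 0.00673% to 0.00698% of the combination libraries, against 0.00888% to 0.00905% and 0.00347% to 0.00387% of DMSO, and Cd209a, Cxcl12, Lepr, Cdh5, Kdr, Tek, Dcn and Lum were at 0.

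Other genes with hardly any counts in DMSO came up beside Tbx21. Among genes with a DMSO sum under 3, C1qtnf3 reached 10.91, 8.878 and 9.945, Cd163l1 13.89, 15.78 and 5.967 and the sodium channel gene Scn11a 15.87, 12.82 and 16.91 in the combination libraries. They had means under 10 over the 12 libraries and were not tested. Of genes with a combination sum under 3, the 4 with the highest DMSO means, Cd248, Cdc42ep1, Cybrd1 and Zfp57, reached at most 7.922 in a DMSO library.

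The combination was next set beside each drug alone, to ask where it differed from them. All 3 comparisons share the combination libraries. Against ruxolitinib alone 3625 of 11484 genes passed (31.6%), 1832 higher (16%) and 1793 lower (15.6%). Against GSK-LSD1 alone 161 passed (1.4%), 121 higher (1.05%) and 40 lower (0.348%), and 1407 had an unadjusted p under 0.05. That count was 97, 83 and 102 without GSK-LSD1 replicate 1, 2 and 3, 270 without ruxolitinib replicate 2 and combination replicate 3, and 427 with weights for library quality. Higher than DMSO and than both single drugs were 82 genes, and lower than all 3 were 17. The 82 became 52 and 45 without GSK-LSD1 replicate 1 and 2, and the 17 ranged from 6 to 35 when single libraries were left out, with 35 without ruxolitinib replicate 2, 10 and 11 without DMSO replicate 2 and 3, and 7, 6 and 9 without GSK-LSD1 replicate 1, 2 and 3.

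Genes of granules were among those above both single drugs. Lyz2 measured 542.2, 426.1 and 396.1 after DMSO, 558.1, 588.7 and 490.1 after ruxolitinib, 602.4, 525.5 and 568.4 after GSK-LSD1 and 1117, 1127 and 1212 after the combination. It exceeded GSK-LSD1 alone by 1.03 ± 0.10 SE, adjusted p = 2.54e-06 and ruxolitinib alone by 1.08 ± 0.10 SE, adjusted p = 1.88e-08. Cd177 measured 122.1, 88.02 and 112.9 after DMSO, 143.3, 159.3 and 159.1 after ruxolitinib, 143.9, 136.4 and 129.6 after GSK-LSD1 and 276.7, 246.6 and 311.3 after the combination (1.02 ± 0.12 SE, adjusted p = 4.4e-05 against GSK-LSD1). Hp measured 250.3, 212.1 and 241.6 after DMSO, 274.6, 320.6 and 243.1 after ruxolitinib, 346.7, 325.5 and 278.2 after GSK-LSD1 and 658.6, 529.7 and 660.3 after the combination (0.96 ± 0.11 SE, adjusted p = 3e-05 against GSK-LSD1). In all 3 genes the lowest combination library lay well above the highest library of either single drug. Among the 12 granule genes of that list, 10 exceeded GSK-LSD1 alone (median 1.00) and 8 exceeded ruxolitinib alone (median 0.76).

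Other genes were highest after the combination as well. Sort1, the sorting receptor sortilin, measured 91.36, 80.02 and 95.06 after DMSO, 140.3, 111 and 121.5 after ruxolitinib, 107.9, 128.4 and 147.6 after GSK-LSD1 and 249.9, 267.3 and 233.7 after the combination (0.97 ± 0.13 SE, adjusted p = 0.000114 against GSK-LSD1, and 1.01 ± 0.13 SE, adjusted p = 3.13e-06 against ruxolitinib). Tifab, a modulator of innate signalling, measured 300.9, 239.1 and 222.8 after DMSO, 347.2, 383.2 and 318.2 after ruxolitinib, 356.7, 367.3 and 355 after GSK-LSD1 and 644.7, 651.1 and 686.2 after the combination (0.88 ± 0.10 SE, adjusted p = 2.15e-05 against GSK-LSD1). Mgst1, a microsomal glutathione transferase, exceeded GSK-LSD1 by 0.83 and ruxolitinib by 0.88, and Cebpe by 0.79 and 0.70. S100a9 exceeded them by 0.71 and 0.99, Ly6c2 by 1.77 and 1.11 and Thbs1 by 0.74 and 2.07. These calls were kept under all alternatives run for these genes. Below both single drugs were Ahr, the aryl hydrocarbon receptor, with 1493, 1461 and 1520 after DMSO, 1195, 983.3 and 1187 after ruxolitinib, 1073, 1175 and 1108 after GSK-LSD1 and 878.8, 845.4 and 705.1 after the combination (-0.47 ± 0.08 SE, adjusted p = 0.00185 against GSK-LSD1) and Plxdc2 at -0.48 and -0.57. For Ahr the call against GSK-LSD1 was lost without the variance trend (adjusted p = 0.0572). Etv4, Tubb6 and Itgav were also lower than after GSK-LSD1 (-0.64, -0.48 and -0.43), calls that were lost without GSK-LSD1 replicate 2 (adjusted p = 0.126, 0.131 and 0.163). The call was also lost for Etv4 without GSK-LSD1 replicate 1 (0.0668) or combination replicate 1 (0.0987), for Tubb6 without GSK-LSD1 replicate 1 (0.0726) or combination replicate 2 (0.0824), and for Itgav without GSK-LSD1 replicate 3 (0.0502) or combination replicate 3 (0.059).

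**Figure D5:**
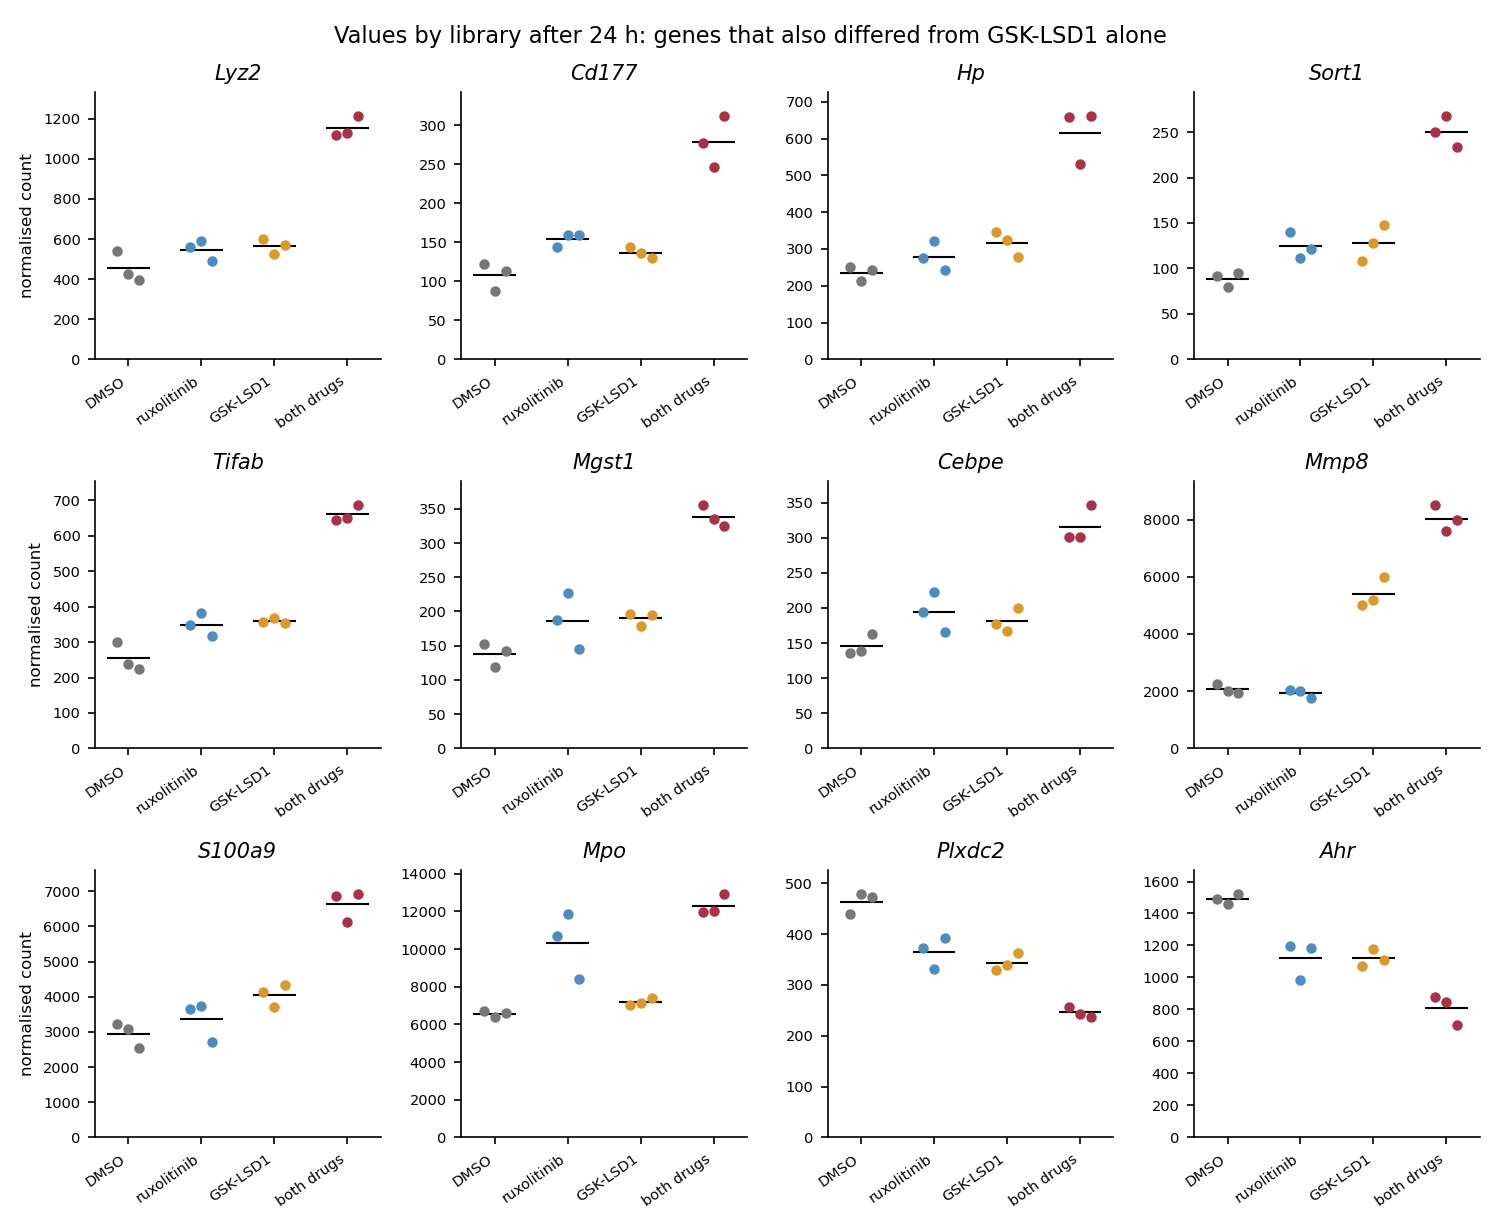
Normalised count (vertical axis, from 0) of 12 genes that differed between the combination and GSK-LSD1 alone, in the 3 libraries of each of the 4 treatments; points are libraries and bars are means. For Lyz2, Cd177, Hp, Sort1, Tifab, Mgst1 and Cebpe the combination libraries lie above all other libraries, while Mpo is also high after ruxolitinib and Mmp8 after GSK-LSD1.

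Some genes had different values after the 2 single drugs. Mmp8 measured 2040, 1991 and 1764 after ruxolitinib and 5016, 5192 and 6006 after GSK-LSD1, and the combination exceeded GSK-LSD1 alone by 0.57 ± 0.07 SE, adjusted p = 0.000113. Mpo, Prss57 and Hvcn1 were higher after the combination than after GSK-LSD1 (0.77, 0.51 and 0.57). Against ruxolitinib alone Prss57 and Hvcn1 gave 0.03 and 0.16, not past the test, and Mpo 0.27, a call lost without ruxolitinib replicate 3 (adjusted p = 0.135). Ms4a3 measured 342.6, 319.1 and 354.5 after DMSO, 547.2, 467.5 and 340.9 after ruxolitinib, 127.9, 124.4 and 150.6 after GSK-LSD1 and 230.1, 192.4 and 209.8 after the combination. The combination lay between the single drugs, 0.65 above GSK-LSD1 (adjusted p = 0.00714, or 0.0682 without GSK-LSD1 replicate 2) and below ruxolitinib at -1.07. Moxd1, a copper monooxygenase, measured 32.77, 25.01 and 41.59 after DMSO, 8.954, 11.3 and 23.72 after ruxolitinib, 386.6, 346.4 and 357 after GSK-LSD1 and 220.2, 158.8 and 218.8 after the combination, and the value of -0.88 against GSK-LSD1 did not pass (adjusted p = 0.0754).

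The 12 genes with the largest rises among those that averaged 100 or more after the combination did not pass the test against GSK-LSD1 alone (adjusted p between 0.0754 and 1), which does not show that the values were equal. Cdc42bpb, Kctd14, Dkk1 and Gfi1b gave 0.07, 0.17, -0.04 and 0.24 against GSK-LSD1, and 3.06, 2.74, 3.03 and 2.31 against ruxolitinib. Vim gave 0.04 and 1.97 in this order. Fstl1 was 89.92, 92.56 and 89.75 after GSK-LSD1 and higher in each combination library, yet its 0.67 did not pass (adjusted p = 0.225). Of the 38 MYC targets and ribosome biogenesis genes 1, Dkc1, was lower than after GSK-LSD1 alone (median -0.13). Against ruxolitinib alone 35 were lower (median -0.45). Of the 42 replication genes these counts were 1, Orc1, (median -0.06) and 34 (median -0.24). The call of Dkc1 was lost without GSK-LSD1 replicate 1, 2 or 3 (adjusted p = 0.145, 0.156 and 0.109), combination replicate 1 or 3 (0.0785 and 0.109) or DMSO replicate 2 or 3 (0.0584 and 0.0566), and that of Orc1 without GSK-LSD1 replicate 2 (0.131).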

How the data were processed

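RNA was sequenced from 12 libraries, 3 for each of 4 treatments. The deposited table gives 1 normalised count per gene and library, used here as a signal: the authors' values are whole multiples of a step near 1 in each library (within 0.1 of a step), with 1e-05 added, which was removed. STAR, DESeq2, mm10 and GRCm38 are named in the submitters' processing notes; annotation, strand setting and filters are not given in the sources used here. Because of the added constant no count test was run. Genes with a mean of at least 10 over the 12 libraries were fitted with limma 3.58.1 (R 4.3.3) on log2(value + 1), with a variance trend and 4 group means (8 residual degrees of freedom), and Benjamini-Hochberg adjustment over all genes. The method was tested on simulated data. Depth was nearly equal, and 3 libraries per group limit the precision. Positions are from GENCODE vM21 and promoter windows from RefSeq. Members and lists were chosen with earlier results of these data known. Named genes are, of characterised genes that averaged 100 or more on the side where they were higher and whose libraries did not overlap, the 12 largest rises and falls, the 6 largest gains and losses in counts and the 6 strongest changes beyond both single drugs in each direction; further, the 4 list members with the smallest p, genes chosen for their known roles, and those near 0 in 1 group. Single members that moved against their list, Rag1, Itga2b, Dkc1 and Orc1 were named after their values were seen. Replicate numbers were checked for pairing: deviations of same-numbered DMSO and combination libraries correlated at -0.00869, 0.0353 and 0.0822, so the numbers were not used as pairs. Some genes that the rule picked are not reported here.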

Additional observations from a re-analysis of the deposited data

How the results depend on the processing

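Alternatives covered the pseudocount (0.25 and 5), TMM scaling, quantile and GC correction, filters (none, or a mean of 50), library weights, no variance trend, a replicate block, the compared libraries alone and leaving out libraries. Against DMSO the 4859 genes stayed within 1.5 times in each of them; leaving out single libraries gave 4025 to 5172 genes, 1981 to 2479 higher and 2000 to 2693 lower. Against GSK-LSD1 the 161 genes (121 higher, 40 lower) became 427 with weights (244 higher, 183 lower), 93 with no variance trend (75 higher, 18 lower), 285 with GC correction (109 lower) and 270 without ruxolitinib replicate 2 and combination replicate 3 together (110 lower). Single libraries left out gave 83 to 226 genes there, 68 to 154 higher and 15 to 72 lower. Against ruxolitinib the 1793 lower genes became 1128 with the compared libraries alone; single libraries left out gave 2872 to 3833 genes, 1513 to 1893 higher and 1359 to 1940 lower. Genes higher than all 3 other groups became 164 with weights and 126 with GC correction, and 45 to 101 without single libraries. Genes lower than all 3 became 11 with no filter, 104 with weights, 4 with no variance trend, 59 with GC correction and 67 without ruxolitinib replicate 2 and combination replicate 3 together, and 6 to 35 without single libraries. The cause was not tested. Same-numbered libraries shared only a number; with the replicate block 4666, 139 and 3379 genes passed against DMSO, GSK-LSD1 and ruxolitinib. No named gene that passed the test in the main fit or in the alternative reversed against DMSO. The signs of genes that passed in neither were not compared. Depth limits genes near a mean of 10.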
